A study of Homo sapiens with 87 samples.

Results

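The WNT family genes described here number 43 of the 35438 genes listed in both gene-level count tables. They were chosen by symbol and not by any measured value: every WNT, FZD (Frizzled), SFRP and DKK gene of the tables, plus LEF1, TCF7, AXIN2, NKD1, LGR5 and NOTUM. They comprise 19 ligands, 10 receptors, 8 secreted antagonists (SFRP and DKK genes) and 6 targets or transcription factors of the pathway. RNA was measured by sequencing in HAP1, a near-haploid human cell line derived from a chronic myeloid leukaemia, in which genes of the BAF (SWI/SNF) chromatin-remodelling complex had been knocked out.

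The knockout table held 75 libraries in 25 groups of 3: wild type (clone C631) and 24 knockout clones of 22 genes. The genes were ACTB, ARID1A, ARID1B, ARID2, BCL11A, BCL11B, BCL7A, BCL7B, BRD7, BRD9, DPF1, DPF2, DPF3, PBRM1, PHF10, SMARCA2, SMARCA4, SMARCC1, SMARCC2, SMARCD1, SMARCD2 and SMARCD3. ARID1A (clones 618-10 and 618-3) and SMARCA4 (clones 2878-4 and 2878-6) had 2 clones each, and the labels name 1 clone for every other gene except SMARCC2. The SMARCC2 libraries carry no clone name and are counted here as 1 clone. For genes with 1 clone the knockout and the clone cannot be told apart. The double-loss table held 12 libraries in 6 groups of 2: wild type with a control knockdown, wild type with knockdown of SMARCA4 and ARID2, ARID2 knockout with a control knockdown or with knockdown of SMARCA4, and SMARCA4 knockout with a control knockdown or with knockdown of ARID2. All groups share the HAP1 background. Nothing in the labels states whether a group's libraries are separate cultures, so p-values measure only the spread between these libraries.

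WNT ligands are secreted lipid-modified proteins that bind Frizzled receptors together with a co-receptor. In the canonical branch this stabilises beta-catenin, which enters the nucleus and activates transcription with LEF1, TCF7 and related factors. SFRP proteins bind the ligands outside the cell, most DKK proteins block the co-receptor, and AXIN2, NKD1 and NOTUM are feedback inhibitors whose genes are induced by the pathway in many cell types. BAF subunits form several assemblies: ARID1A, ARID1B and the DPF proteins belong to the canonical complex, ARID2, PBRM1, BRD7 and PHF10 to the polybromo complex (PBAF), and BRD9 to a smaller non-canonical complex.

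RefSeq promoter entries (250 bases before to 50 bases after a start site, build GRCh38.p14) were at hand for 27 of the 43 genes, as 31 entries. The members WNT3, LEF1 and FZD8 are shown because they differed between clones in the results that follow. Each stretch is the 250 bases before the start on the gene's own strand, 5′ to 3′, and capitals mark CpG dinucleotides, the sites of DNA methylation.
WNT3 (chr17:46818693-46818942, minus strand, 26 CpG): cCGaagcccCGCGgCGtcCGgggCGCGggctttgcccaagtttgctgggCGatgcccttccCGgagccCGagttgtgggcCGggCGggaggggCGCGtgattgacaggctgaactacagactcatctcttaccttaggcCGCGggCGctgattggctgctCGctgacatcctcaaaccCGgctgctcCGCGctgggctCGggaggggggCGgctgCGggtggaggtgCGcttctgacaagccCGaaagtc
LEF1 (chr4:108166302-108166551, minus strand, 8 CpG): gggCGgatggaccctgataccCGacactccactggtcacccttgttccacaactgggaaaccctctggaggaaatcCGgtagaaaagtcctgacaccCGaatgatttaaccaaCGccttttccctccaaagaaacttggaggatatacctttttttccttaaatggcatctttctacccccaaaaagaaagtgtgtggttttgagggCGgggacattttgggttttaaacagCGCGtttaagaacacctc
FZD8 (chr10:35642297-35642546, minus strand, 24 CpG): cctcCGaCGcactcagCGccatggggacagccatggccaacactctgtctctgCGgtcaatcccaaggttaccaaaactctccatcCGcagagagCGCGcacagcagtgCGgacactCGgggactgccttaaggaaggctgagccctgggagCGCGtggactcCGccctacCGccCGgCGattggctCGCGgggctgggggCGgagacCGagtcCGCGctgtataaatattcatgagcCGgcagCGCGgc
Over the full 300 bases the WNT3 entry held 28 CpG, the FZD8 entry 31 and the LEF1 entry 9. The median was 28 CpG over the 31 entries of the family and 14 over all 35116 promoters of that length. The core sequence bound by LEF1 and TCF factors, ATCAAAG or its reverse complement CTTTGAT, was found in 0 of the 31 entries, and in 2.62% of all promoters. No match says only that these letters are not in these windows.

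Library totals ranged from 14917644 to 29993652 counts in the knockout table. Those of the double-loss table were lower, from 9144150 to 19789622. Levels are given as CPM, the share of the library total in counts per 1000000. The lowest value listed in either table was 1. The targeted gene was called lower than wild type in 14 of 24 clones and had a lower fitted level in 22, and the exceptions were the clones labelled BCL11A and BCL11B. Some clones of different genes resembled each other over all genes: the correlation of their centred log2 CPM was 0.726 for BCL11B and SMARCD3, 0.705 for BCL11A and BCL11B and 0.58 for BCL11A and SMARCD3, against 0.836 for the 2 SMARCA4 clones and 0.746 for the 2 ARID1A clones. Of 9 markers of blood cells 5 averaged 1 CPM or more over the knockout table, and LMO2, CD34, PTPRC and SPI1 stayed under 1 CPM in every library. The summed level of the 9 was 69.2 CPM in wild type and ran from 28.2 CPM in SMARCC1 to 119 CPM in SMARCA2, and its part in the results was not tested. Because the samples are bulk RNA, fewer cells of a type and less RNA per cell cannot be told apart.

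Frizzled receptor genes held the leading places in wild-type HAP1. Divided by the merged exon length, FZD2 and FZD5 led with 9.28 ± 0.605 and 9.12 ± 0.306 CPM per kb (SD, n = 3), and their libraries overlapped. FZD7 followed at 8.19 ± 0.582 CPM per kb, with libraries that overlapped those of FZD2 but neither those of FZD5 nor those of SFRP1. SFRP1 was the leading antagonist with 5.10 ± 0.673 CPM per kb. The highest ligand was WNT10B at 3.79 ± 0.699 CPM per kb, followed by WNT5A at 1.77 ± 0.211 and WNT3 at 1.68 ± 0.0521, whose libraries overlapped. Among the targets and factors AXIN2 stood at 2.28 ± 0.187, NOTUM at 1.90 ± 0.0700, TCF7 at 1.55 ± 0.216, NKD1 at 1.06 ± 0.0676 and LEF1 at 0.948 ± 0.123 CPM per kb. Neighbours in this order mostly overlapped in their libraries.

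**Figure D1:**
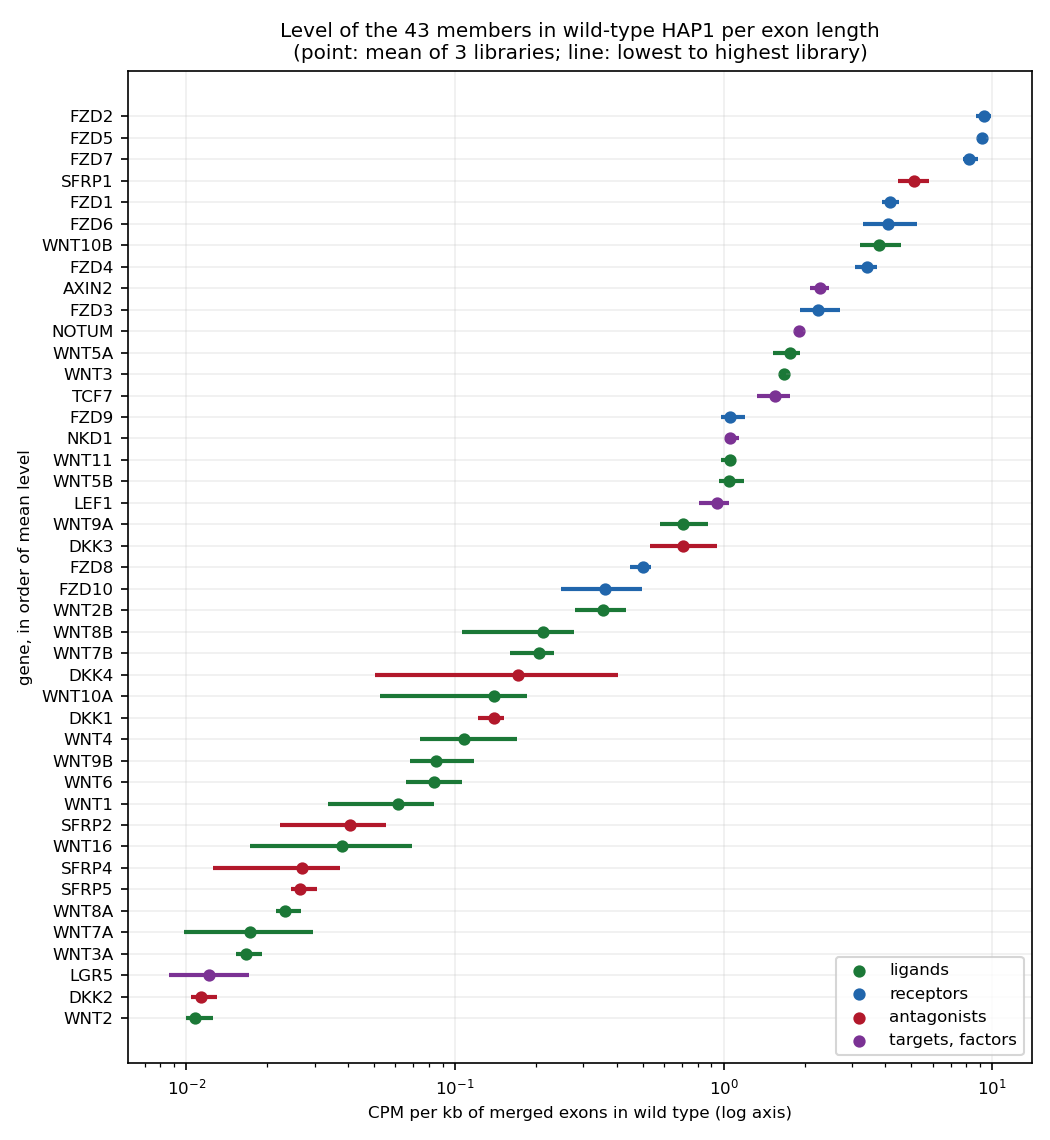
Level of each of the 43 genes in wild-type HAP1 as CPM per kb of merged exons on a log axis, with the mean of 3 libraries (point) and the lowest to highest library (line), coloured by role. FZD2, FZD5 and FZD7 lead at 8.19 to 9.28 CPM per kb, while the libraries of most neighbouring genes overlap.

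Over the 25 groups of the knockout table, 18 members had a mean of at least 1 CPM in every group and 16 stayed under 1 CPM in every group. The 9 that crossed this level between groups were DKK1, DKK3, FZD10, FZD8, LEF1, SFRP1, WNT11, WNT7B and WNT8B. The filter on low counts left 31 of the 43 genes for testing. The 12 others were DKK2, DKK4, LGR5, SFRP2, SFRP4, SFRP5, WNT1, WNT16, WNT2, WNT3A, WNT7A and WNT8A, whose highest count in any library was 8. LGR5, a receptor for R-spondins and a stem cell marker, and WNT3A, a canonical ligand, are among these.

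Each clone was compared with wild type by edgeR's quasi-likelihood test, and a gene is said to be called, or to rise or fall, at a Benjamini-Hochberg adjusted p of at most 0.05 over all genes tested and at least a 2-fold change. Over the 24 clones and the 31 members tested, 40 of 744 gene-by-clone pairs rose and 52 fell, which is 12.4% called. Over all 16159 genes tested 4.70% of pairs were called, 2.46% higher and 2.24% lower. FZD10 alone gave 24 of these calls, and without it 36 pairs rose and 32 fell, or 9.44% of 720. Between 1 and 7 members were called per clone. The standard deviation of the 25 group means of log2 CPM had a median of 0.31 over the members tested and of 0.19 over all genes tested. SFRP1 varied more than 99.7% of all genes tested by this measure, FZD10 more than 98.5%, WNT3 more than 98.1%, LEF1 more than 96.7% and WNT5A more than 96.0%.

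By role the calls were as follows, with no test between roles. At least 1 clone gave a call for 18 of the 31 members tested, or 58.1%, and for 25.3% of all genes tested. Of 13 ligands tested 8 were called in at least 1 clone, with 14 higher and 13 lower calls, and of 10 receptors 5 were called, with 9 higher and 23 lower calls, of which FZD10 alone gave 4 and 20. All 3 antagonists that were tested (SFRP1, DKK1 and DKK3) were called, with 12 higher and 11 lower calls. Of 5 targets and factors LEF1 and NOTUM were called, with 5 higher and 5 lower calls. The 13 members called in no clone were AXIN2, FZD1, FZD2, FZD4, FZD6, FZD9, NKD1, TCF7, WNT2B, WNT4, WNT5B, WNT9A and WNT9B, whose log2 fold changes lay between -1.42 and 0.79.

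**Figure D2:**
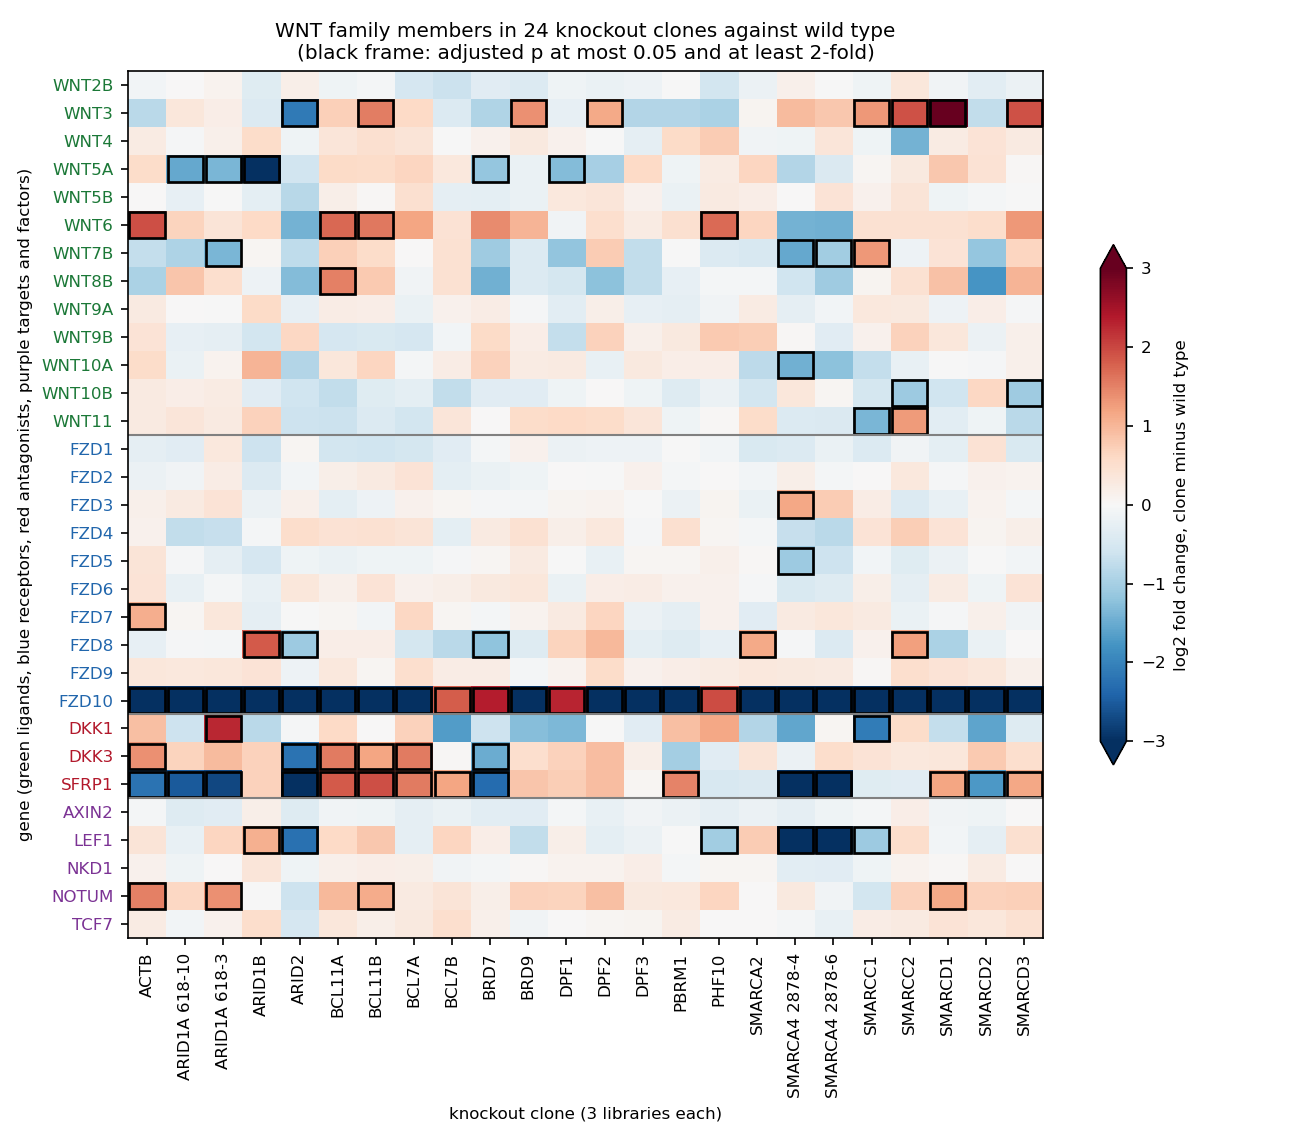
Log2 fold change of the 31 members tested (rows, grouped by role) in each of 24 knockout clones against wild type (columns, 3 libraries each), with a black frame around each call and colours that saturate at 3 in either direction. The FZD10 row is called in all 24 clones, the SFRP1 row holds 7 higher and 8 lower calls, and AXIN2, NKD1 and TCF7 hold none.

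WNT3, a ligand of the canonical pathway, rose in 7 clones and fell in 1. In wild type its libraries held 7.40, 7.01 and 7.41 CPM. In the SMARCD1 clone they held 109, 95.3 and 70.3 CPM, the highest of any group. All 3 libraries lay far above wild type, and the fitted change was 12.4-fold (log2 fold change 3.63, SE 0.174, adjusted p = 5.5e-25). SMARCD1 encodes a BAF core subunit, and so does its paralog SMARCD3, in whose clone WNT3 stood at 33.9, 27.5 and 22.3 CPM, a 3.73-fold rise (adjusted p = 6.02e-14). WNT3 in the SMARCC2 clone stood at 24.6, 32.2 and 28.1 CPM, 3.78-fold above wild type (adjusted p = 3.4e-14). The other clones with a WNT3 rise were the one labelled BCL11B with a mean of 21.8 CPM, BRD9 with 18.9, SMARCC1 with 17.99 and DPF2 with 16.1 CPM, at 2.19- to 2.91-fold. No library of these 7 clones overlapped wild type. The BCL11B and SMARCD3 clones resembled each other over all genes (correlation 0.726), and SMARCD1 resembled both less closely (0.472 and 0.488). The WNT3 rises in BCL11B and SMARCD3 are therefore not counted as separate observations. How far the rise in SMARCD1 is separate from them was not tested. WNT3 fell only in the ARID2 clone, to 1.97, 2.01 and 1.03 CPM (log2 fold change -2.11, SE 0.195, adjusted p = 3.27e-13). In the DPF2 clone the WNT3 call was lost when the mean of the clones of all other genes replaced wild type as the reference.

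WNT5A, which mostly signals through the beta-catenin-independent branch, fell in 5 clones and rose in none. Wild-type libraries held 13.7, 14.2 and 11.3 CPM of WNT5A. In the ARID1B clone they held 2.06, 1.53 and 1.23 CPM, an 8.17-fold fall (log2 fold change -3.03, SE 0.303, adjusted p = 3.52e-12). Both clones of its paralog ARID1A, which takes the same place in the canonical complex, were lower too. WNT5A stood at 5.63, 4.51 and 3.42 CPM in clone 618-10 (log2 fold change -1.54, adjusted p = 9.68e-06). In clone 618-3 it stood at 7.06, 4.01 and 4.31 CPM (log2 fold change -1.38, adjusted p = 6.25e-05). The remaining calls for WNT5A were a fall in the BRD7 clone to a mean of 5.87 CPM and in the DPF1 clone to 5.35 CPM. None of these libraries overlapped wild type. The BRD7 and DPF1 calls for WNT5A were lost when all libraries numbered 2 were left out, with log2 fold changes of -1.11 and -1.19. That in BRD7 was also lost against the mean of the clones of all other genes (-0.97).

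WNT11, a ligand best known for its role in cell movements, moved in opposite directions in the clones of the paralogous scaffold subunits SMARCC1 and SMARCC2. Wild-type libraries held 2.63, 2.34 and 2.67 CPM of WNT11. The SMARCC1 libraries held 0.945, 0.838 and 1.21 CPM, all below wild type (log2 fold change -1.36, SE 0.230, adjusted p = 5e-06). The SMARCC2 libraries held 4.77, 7.61 and 6.65 CPM, all above it (log2 fold change 1.27, SE 0.200, adjusted p = 1.01e-06). The difference between the 2 clones was not tested. Exons of WNT11 share 204 bases with the opposite-strand gene AP000785.1 in the GENCODE annotation, and whether counting used the strand is not given in the sources used here, so reads of the 2 genes cannot be told apart.

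WNT7B, a canonical ligand of epithelia and neurons, was low throughout. Wild-type libraries held 1.12, 0.809 and 1.18 CPM of WNT7B. It fell in both SMARCA4 clones, to 0.393, 0.139 and 0.513 CPM in 2878-4 (adjusted p = 0.00258) and to 0.539, 0.347 and 0.592 CPM in 2878-6 (adjusted p = 0.0354), and in ARID1A clone 618-3 to a mean of 0.407 CPM (adjusted p = 0.0135). It rose in the SMARCC1 clone to 2.21, 2.51 and 2.99 CPM (log2 fold change 1.3, SE 0.335, adjusted p = 0.00271). These values rest on few counts: 3 to 13 per SMARCA4 library against 18 to 26 in wild type. The WNT7B call in 2878-6 was lost without wild-type replicate 1 (log2 fold change -0.98) or 3 (-0.93), and that in ARID1A 618-3 without wild-type replicate 3 (-1.24). Leaving out all libraries of 1 number ended the WNT7B calls in 618-3 (number 1, 2 or 3, at -1.57 to -1.02), in 2878-6 (number 1 or 2, at -1.04 and -0.99), in 2878-4 (number 2, -1.29) and in SMARCC1 (number 2, 1.17). The call in 2878-6 was also lost without the low-count filter (-1.04) and against the mean of the clones of all other genes (-0.84).

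The other ligands with calls were WNT6, WNT8B, WNT10A and WNT10B. WNT6 rose in the ACTB, BCL11A, BCL11B and PHF10 clones, to means of 0.560, 0.497, 0.465 and 0.482 CPM against 0.142 in wild type. WNT10B fell in the SMARCC2 and SMARCD3 clones, to 4.77 and 4.90 CPM from 9.96 CPM in wild type, and these libraries did not overlap. WNT8B rose in the clone labelled BCL11A to 1.35 CPM from 0.450 CPM. WNT10A fell in SMARCA4 clone 2878-4 to 0.171 CPM from 0.476 CPM, with libraries that overlapped.

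Among the receptors FZD10 showed an all-or-none pattern. Wild-type libraries held 1.62, 0.809 and 1.13 CPM of FZD10, that is 18 to 29 counts. In 20 clones none of the 60 libraries held more than 2 counts: 55 stood at the lowest listed value of 1 and 5 at 2, or 0.0435 to 0.114 CPM. In the other 4 clones every library was above wild type. FZD10 stood at 6.17, 5.57 and 6.71 CPM in the BRD7 clone, at 6.06, 5.02 and 6.18 in DPF1, at 4.76, 5.20 and 3.65 in PHF10 and at 4.93, 4.27 and 3.33 in BCL7B. These were rises of 1.82 to 2.36 on the log2 scale, with adjusted p between 2.37e-19 and 6.15e-15. With a floor of 3 counts per library, FZD10 was at least 7.16-fold lower than wild type in each of the 16 clones whose libraries all stood at 1, and up to at least 8.40-fold. ACTB, BCL11A, DPF2 and SMARCC2 had libraries at 2 counts, and they were called lower as well. No clone overlapped wild type. When the mean of the clones of all other genes replaced wild type as the reference, the 4 higher calls of FZD10 were kept and all 20 lower calls were lost. Most clones in that reference stood at 1 or 2 counts themselves, so this outcome was largely set by the split of 20 and 4 clones. Whether the pattern of FZD10 came with the knockout or with the derivation of the clones was not tested.

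FZD8 rose in 3 clones and fell in 2. Wild-type libraries held 2.07, 1.80 and 2.17 CPM of FZD8. The ARID1B libraries held 6.87, 8.64 and 6.14 CPM, a 3.58-fold rise (log2 fold change 1.84, SE 0.260, adjusted p = 7.74e-08), while the ARID1A clones held means of 1.96 CPM each and were not called. FZD8 rose in the SMARCA2 clone to 4.22, 4.74 and 4.23 CPM (adjusted p = 0.00303). In the SMARCC2 clone it stood at 2.37, 3.21 and 9.09 CPM, so the rise (adjusted p = 0.000209) leaned on library 3. Without the libraries numbered 3 the FZD8 log2 fold change there was 0.50 and not called, and the call was also lost in a fit of only the 6 libraries compared (1.22). FZD8 fell in 2 clones of the PBAF complex, ARID2 with 0.817, 1.31 and 0.706 CPM (log2 fold change -1.09, adjusted p = 0.00631) and BRD7 with 1.04, 0.832 and 0.793 CPM (log2 fold change -1.20, adjusted p = 0.00394). The FZD8 calls were lost in ARID2 without the libraries numbered 1 (-0.97) or 3 (-0.85), and in BRD7 (-1.23) and SMARCA2 (1.0) without those numbered 2.

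The abundant receptors were seldom called. FZD5 fell in SMARCA4 clone 2878-4 to 28.7, 27.1 and 29.4 CPM from 63.5, 60.6 and 59.5 CPM in wild type (log2 fold change -1.08, SE 0.0620, adjusted p = 4.07e-22). FZD3 rose in the same clone to 64.0, 69.8 and 69.3 CPM from 37.4, 29.2 and 26.5 CPM (log2 fold change 1.15, SE 0.144, adjusted p = 1.51e-09). FZD7 rose in the ACTB clone to 70.6, 65.7 and 63.4 CPM from 30.6, 30.03 and 34.2 CPM (log2 fold change 1.09, SE 0.0853, adjusted p = 5.64e-16). In all 3 cases the libraries did not overlap wild type, and the changes barely passed 2-fold. SMARCA4 clone 2878-6 moved the same way without overlap and without a call. It held FZD5 at 41.6, 37.2 and 39.3 CPM and FZD3 at 48.7, 59.6 and 49.1 CPM. By adjusted p alone FZD1 was higher in 2 clones and lower in 12, and FZD5 higher in 2 and lower in 7. FZD7 was higher in 7 and lower in 2. FZD4 was not called in any clone of this table. Its means in both SMARCA4 clones, 15.3 and 14.3 CPM, were below the 25.3 CPM of wild type at an adjusted p of 4.44e-06 and 2.59e-07, short of the fold asked for. The same held for ARID1A clones 618-10 and 618-3, at 15.25 and 16.08 CPM (adjusted p = 3.45e-06 and 1.93e-05). By adjusted p alone FZD4 was lower in these 4 clones and higher in 9, so its lower level is not particular to SMARCA4.

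SFRP1, a secreted antagonist that binds WNT ligands, was the member with the widest range. Wild-type libraries held 24.04, 21.2 and 27.6 CPM of SFRP1. The lowest levels were in the ARID2 clone with 0.337, 0.870 and 0.894 CPM, SMARCA4 2878-4 with 0.562, 0.697 and 1.31 CPM and SMARCA4 2878-6 with 0.485, 0.893 and 0.729 CPM. These 3 clones overlapped among themselves and lay far below wild type. The fall was 34.3-fold in ARID2 (log2 fold change -5.10, SE 0.222, adjusted p = 7.52e-27), 27.3-fold in 2878-4 (-4.77, SE 0.214, adjusted p = 7.46e-27) and 33.8-fold in 2878-6 (-5.08, SE 0.221, adjusted p = 2.5e-27).

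A middle group of 5 clones held SFRP1 at 2.78 to 8.07 CPM. These were both ARID1A clones, with means of 4.29 and 3.72 CPM, BRD7 with 4.997, ACTB with 5.19 and SMARCD2 with 7.38 CPM. Their log2 fold changes lay between -2.72 and -1.72, and no library overlapped wild type. SFRP1 rose in 7 clones. The libraries labelled BCL11B held 95.5, 97.2 and 93.1 CPM and those labelled BCL11A 89.7, 89.4 and 83.4 CPM. Both lay above every wild-type library, with rises of 3.84- and 3.56-fold (adjusted p = 1.84e-15 and 1.43e-14). The other rises were to means of 71.9 CPM in BCL7A, 69.5 in PBRM1, 56.2 in SMARCD1, 55.4 in BCL7B and 55.3 in SMARCD3. All 15 SFRP1 calls were kept in every alternative run on the knockout table, including the mean of the clones of all other genes as the reference. BCL11A, BCL11B and SMARCD3 are the clones that resembled each other over all genes, so their rises are not 3 separate observations. SMARCD1 resembled these clones too, less closely (correlations of 0.445 to 0.488).

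DKK3, a divergent member of the DKK family, rose in 4 clones and fell in 2. Wild-type libraries held 2.69, 3.19 and 4.79 CPM of DKK3. The ARID2 libraries held 0.962, 0.870 and 0.470 CPM (log2 fold change -2.21, SE 0.406, adjusted p = 2.94e-05) and the BRD7 libraries 1.40, 1.35 and 1.07 CPM (-1.50, adjusted p = 0.00403). It rose in the BCL7A, BCL11A, ACTB and BCL11B clones, to means of 10.8, 10.6, 9.19 and 8.40 CPM, by 1.19 to 1.57 on the log2 scale. No library of these 6 clones overlapped wild type. The DKK3 call in BCL11B was lost without wild-type replicate 1 (1.04) or 2 (1.12) and that in BRD7 without wild-type replicate 3 (-1.22). Those in ACTB, BCL11A and BCL7A were lost without the libraries numbered 2 (1.07, 1.25 and 1.36), that in BCL11B without those numbered 1 (0.87) or 2 (1.13), and that in BRD7 without those numbered 3 (-1.11). Against the mean of the clones of all other genes the BCL11B call was lost too (0.88).

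DKK1, the antagonist that blocks the LRP co-receptors, was near the detection limit. It stood at 0.336, 0.270 and 0.316 CPM in wild type, at 0.105, 0.0465 and 0.0525 CPM in SMARCC1, where it was called lower (adjusted p = 0.0426), and at 1.11, 2.08 and 1.299 CPM in ARID1A clone 618-3, where it was called higher (log2 fold change 2.25, SE 0.459, adjusted p = 0.000131). The other ARID1A clone, 618-10, held a mean of 0.198 CPM of DKK1. Tested against each other, the ARID1A clones differed in DKK1 by a log2 fold change of -2.87 (618-10 minus 618-3, SE 0.504, adjusted p = 6.48e-05). Of the 31 members this was the only call between the 2 ARID1A clones, where 1.26% of all genes were called. Between the 2 SMARCA4 clones edgeR called 0 members, with 6 at an unadjusted p under 0.05, and 1.85% of all genes were called. DESeq2 called 1 member over both clone-against-clone comparisons, and the share of all genes it called is not given.

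LEF1, the transcription factor that carries the beta-catenin signal, fell in 5 clones and rose in 1. Wild-type libraries held 5.60, 5.30 and 4.34 CPM of LEF1. The lowest levels were in the SMARCA4 clones, with 0.506, 0.511 and 0.233 CPM in 2878-4 and 0.647, 0.546 and 0.638 CPM in 2878-6. All 6 libraries lay below wild type, by 12.0-fold (log2 fold change -3.58, SE 0.343, adjusted p = 3.38e-13) and 8.17-fold (-3.03, SE 0.322, adjusted p = 1.12e-11). LEF1 in the ARID2 clone stood at 1.298, 1.25 and 0.659 CPM (log2 fold change -2.23, SE 0.298, adjusted p = 2.51e-08). In PHF10 and SMARCC1 it fell to means of 2.45 and 2.39 CPM (log2 fold changes -1.04 and -1.09, adjusted p = 0.00768 and 0.00197), and both calls were lost against the mean of the clones of all other genes. LEF1 rose in the ARID1B clone to 11.6, 8.06 and 12.2 CPM (log2 fold change 1.07, adjusted p = 0.000699), a call lost without wild-type replicate 3 (0.97). That in PHF10 was lost without wild-type replicate 1 (-0.97). Without all libraries of 1 number the calls ended in ARID1B (number 3, 0.85), PHF10 (number 1 or 2, -1.09 and -0.95) and SMARCC1 (number 1, -0.88). Exons of LEF1 share 279 bases with its antisense gene LEF1-AS1, and reads of the 2 cannot be told apart here.

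AXIN2, NKD1 and TCF7 were called in no clone. Exons of AXIN2 share 1316 bases with the same-strand gene AC004805.1. Those of TCF7 share 210 bases with the opposite-strand gene SKP1, and those of NKD1 67 with the opposite-strand gene AC007608.1. Reads of the overlapping genes cannot be told apart here. AXIN2, the most widely used readout of canonical signalling, held group means between 9.10 CPM in ARID2 and 14.2 CPM in SMARCC2, against 12.9, 12.0 and 10.9 CPM in the wild-type libraries, and passed the adjusted p in 0 of 24 clones. TCF7 held means of 10.9 to 22.3 CPM and passed the adjusted p in 0 clones as well. NKD1 held means of 14.5 to 23.8 CPM and passed the adjusted p, short of the fold, in 3 clones. It was below every wild-type library in SMARCA4 2878-4 (log2 fold change -0.32, adjusted p = 0.00279) and 2878-6 (-0.34, adjusted p = 0.00153), the clones with the lowest LEF1, and above them in ARID1B (0.37, adjusted p = 0.000982). NOTUM, a secreted enzyme that inactivates WNT ligands, rose in 4 clones. Its libraries held 5.55, 5.71 and 5.97 CPM in wild type, 17.1, 16.8 and 14.7 CPM in ACTB and 13.5, 13.9 and 17.98 CPM in ARID1A 618-3. In the clone labelled BCL11B and in SMARCD1 the NOTUM means were 12.7 and 12.9 CPM. The 4 rises lay between 1.11 and 1.51 on the log2 scale with no overlap. ARID1A 618-10 was also above every wild-type library but short of the fold (log2 fold change 0.63, adjusted p = 0.0315). By adjusted p alone NOTUM was higher in 11 clones and lower in 0.

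**Figure D3:**
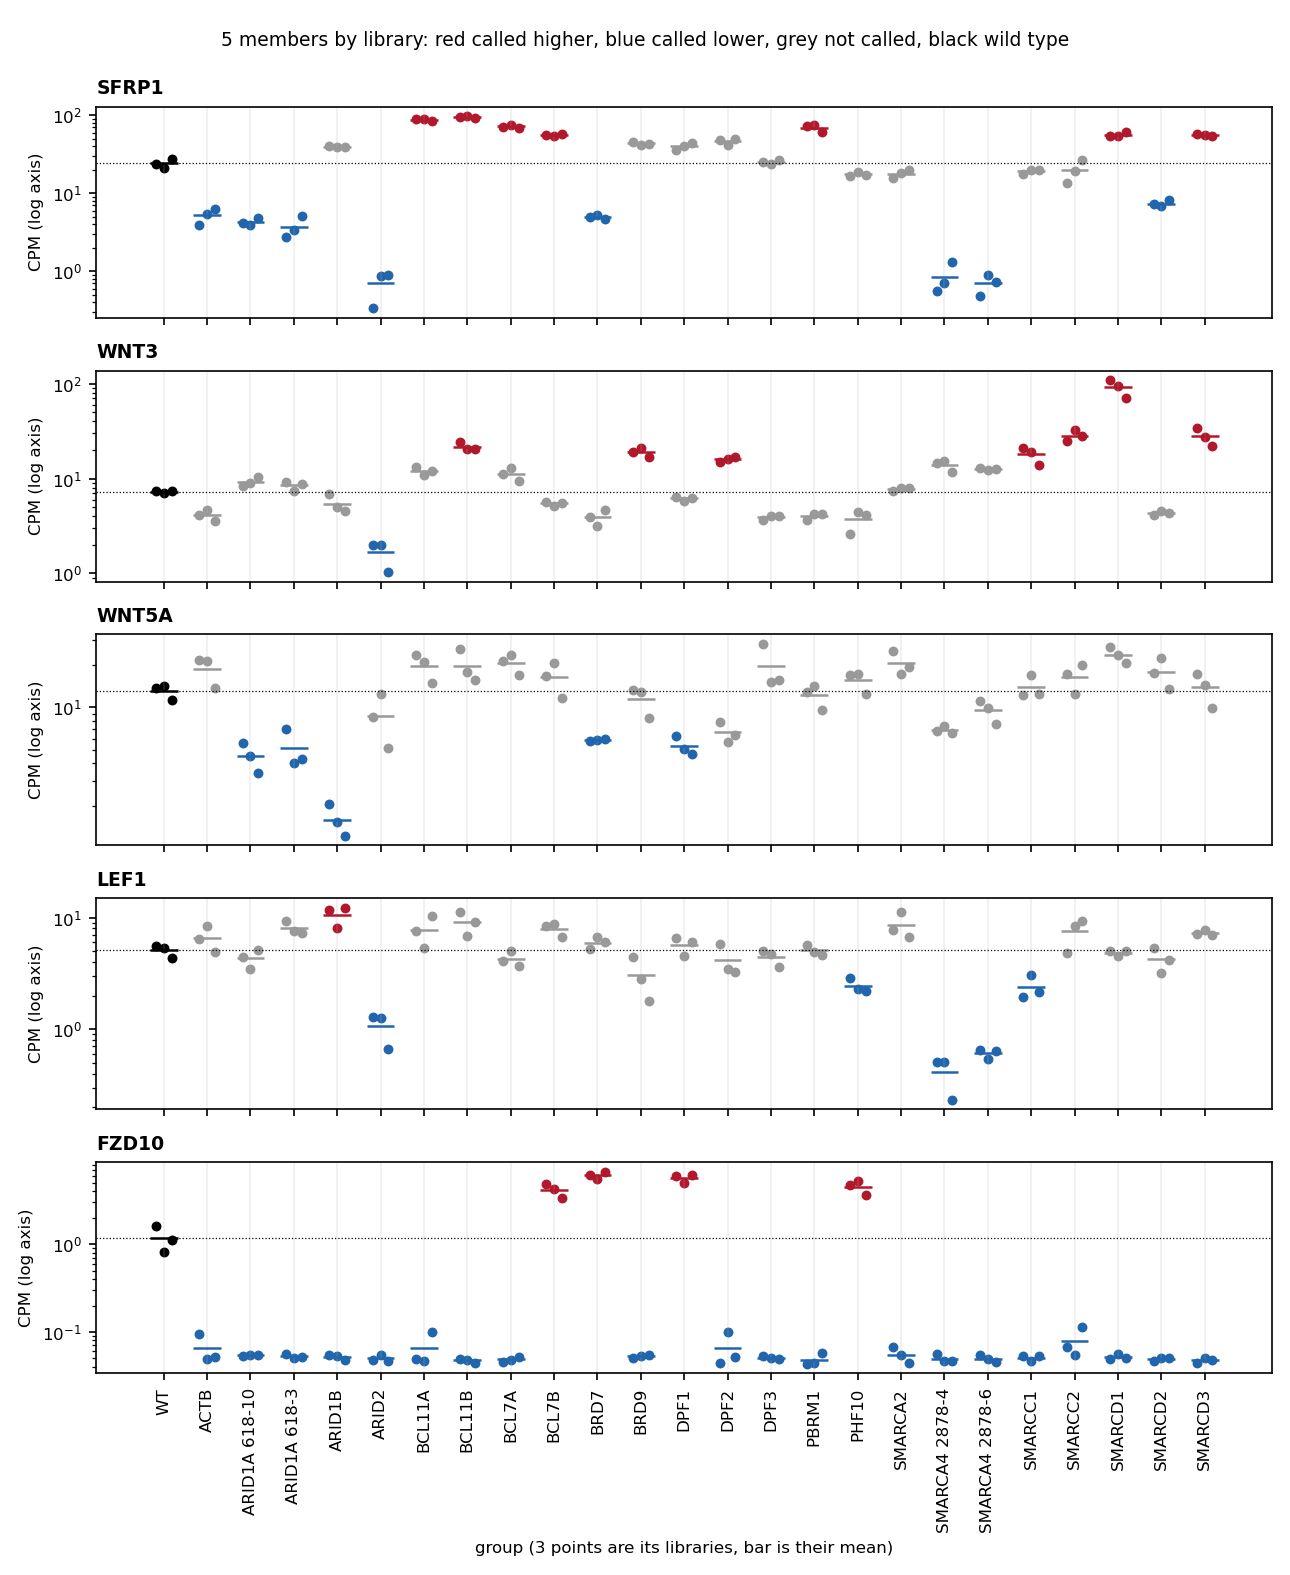
CPM of SFRP1, WNT3, WNT5A, LEF1 and FZD10 on log axes in every library (points) of wild type and 24 knockout clones, with group means (bars) and the wild-type mean (dotted line). Red marks a higher call, blue a lower call and grey no call. SFRP1 runs from 0.700 CPM in ARID2 to 95.2 CPM in BCL11B, WNT3 reaches 91.6 CPM in SMARCD1, and FZD10 stands at 1 or 2 counts in 20 clones and above wild type in 4.

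Clone by clone, the most members were called in SMARCA4 2878-4, with 7 of 31 members called where 11.3% of all genes were. In 2878-6 it was 4, with 10.2% of all genes. FZD10, LEF1, SFRP1 and WNT7B fell in both clones. The summed level of 8 fibroblast markers was 146 CPM in 2878-4 against 24.9 in wild type, with COL1A2, DCN, LUM and FAP under 1 CPM in every library. The part of these markers in the results was not tested. The median log2 fold change of the members tested was -0.28 in 2878-4 and -0.23 in 2878-6. In ARID2 6 members fell and none rose, where 5.53% of all genes were called, and the median log2 fold change was -0.50 over the members tested and -0.01 over all genes tested. ARID1A 618-10 had 3 members called and 618-3 had 6, with 6.28% and 6.10% of all genes, and FZD10, SFRP1 and WNT5A fell in both.

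Clones of subunits of the same complex were alike in some members and unlike in others. Among the PBAF clones WNT3 lay below every wild-type library in all 4, and it was called in ARID2. It was short of the fold in BRD7 (log2 fold change -0.90, adjusted p = 0.000142), PBRM1 (-0.87, adjusted p = 0.000291) and PHF10 (-0.96, adjusted p = 8.07e-05). Outside PBAF, WNT3 was also below every wild-type library in DPF3 (-0.89, adjusted p = 0.000551) and ACTB (-0.8, adjusted p = 0.000504). By adjusted p alone WNT3 was lower in 7 clones and higher in 11, so a lower level is not particular to PBAF. SFRP1 had a mean of 0.700 CPM in ARID2, 4.997 in BRD7 and 17.5 in PHF10, but 69.5 in PBRM1. FZD10 stood at its lowest value in ARID2 and PBRM1 and at 6.15 and 4.54 CPM in BRD7 and PHF10. Among paralogs, SFRP1 was at 4.29 and 3.72 CPM in the ARID1A clones and at 39.2 CPM in ARID1B, and at 56.2, 7.38 and 55.3 CPM in SMARCD1, SMARCD2 and SMARCD3. WNT3 was lowest in SMARCD2 too, with 91.6, 4.33 and 27.9 CPM in the same 3 clones. The SMARCD2 libraries overlapped neither paralog in either gene. The differences between clones of different genes were not tested. Over the 25 group means, log2 CPM of SFRP1 correlated with that of WNT7B (Pearson r = 0.69), LEF1 (0.65) and FZD4 (0.57). These were the highest Pearson values among all pairs of the 10 members given in full, and no values for pairs of other genes are given. The Spearman values of the same pairs were 0.74, 0.4 and 0.48. By that measure FZD10 with WNT11 (0.58) and FZD4 with WNT7B (0.49) ranked above SFRP1 with LEF1 or FZD4. Most of the 10 members were chosen for calls in these same clones. SFRP1, LEF1 and WNT7B fell in both SMARCA4 clones, which enter as separate groups, so high values among them are partly built in. The groups share the wild-type background and, in part, their profile over all genes.

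In the double-loss libraries 27 of the 43 genes could be tested. Besides the 12 named above, DKK1, WNT6, WNT8B and WNT9B did not pass the filter. Against wild type with a control knockdown, 2 of 135 pairs rose and 18 fell over the 5 other groups, which is 14.8% called. Over all 14601 genes tested 5.22% of pairs were called, 2.52% higher and 2.70% lower. The 5 groups share the same 2 wild-type control libraries, so their calls are not separate observations. Some calls for FZD8, FZD4, WNT3, WNT11 and DKK3 hinged on 1 of these libraries, as given below. LEF1 kept its 3 lower calls in every alternative run. By group, 3 members were called in ARID2 knockout with control knockdown (1.57% of all genes), 6 in ARID2 knockout with SMARCA4 knockdown (9.31%), 4 in SMARCA4 knockout with control knockdown (6.09%), 6 in SMARCA4 knockout with ARID2 knockdown (8.55%) and 1 in wild type with both knockdowns (0.562%).

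SFRP1 fell in all 4 knockout groups. Its libraries held 24.7 and 37.8 CPM in wild-type control, 3.06 and 3.11 in ARID2 knockout, 1.11 and 0.418 in ARID2 knockout with SMARCA4 knockdown, 2.02 and 4.30 in SMARCA4 knockout and 2.28 and 2.21 in SMARCA4 knockout with ARID2 knockdown. All 8 libraries lay below both controls, with log2 fold changes of -3.34, -5.42, -3.36 and -3.83 in that order (adjusted p = 0.00724, 0.000434, 0.00185 and 0.000857). Wild type with both knockdowns held 3.75 and 10.1 CPM of SFRP1, also below the controls, and was not called (log2 fold change -2.18, adjusted p = 0.0742). LEF1 showed 9.18 and 16.2 CPM in wild-type control and 3.28 and 5.78 CPM in ARID2 knockout, which was not called (adjusted p = 0.138). It fell to 1.39 and 1.34 CPM in ARID2 knockout with SMARCA4 knockdown, 1.59 and 2.05 CPM in SMARCA4 knockout and 0.780 and 1.63 CPM in SMARCA4 knockout with ARID2 knockdown, with log2 fold changes of -3.27, -2.85 and -3.46. The SFRP1 call in ARID2 knockout was lost without replicate 1 or 2 of that group, with values of -3.33 and -3.35.

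FZD10 stood at 1.34 and 0.989 CPM in wild-type control and at 1 count in all 8 libraries of the knockout groups, which is at least 1.97 to 2.70 lower on the log2 scale. In wild type with both knockdowns it held 0.91 and 0.657 CPM and was not called. The FZD10 call in ARID2 knockout was lost without either of its libraries, at fitted values of -3.61 and -3.34 that are no bounds. FZD8 held 3.57 and 3.30 CPM in wild-type control, 0.437 and 0.623 CPM in ARID2 knockout and 1.48 and 0.418 CPM in ARID2 knockout with SMARCA4 knockdown, both called lower (adjusted p = 0.0453 and 0.0321). The first of these FZD8 calls was lost when any of 8 libraries was left out, at values from -2.96 to -2.45, and also when 1 was subtracted from every value (-2.91). The second was lost without replicate 2 of its group (-1.29) or without either wild-type control library (-1.88 and -1.98).

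FZD4 was below both wild-type control libraries in the 4 groups that lost SMARCA4, and was called in 2 of them. Its libraries held 34.2 and 40.6 CPM in wild-type control and 54.1 and 49.1 CPM in ARID2 knockout, against 17.1 and 17.8 CPM in SMARCA4 knockout and 19.3 and 18.9 CPM in SMARCA4 knockout with ARID2 knockdown, which were called lower than wild type (log2 fold changes -1.15 and -1.01). Wild type with both knockdowns held 20.5 and 23.9 CPM of FZD4 and was not called (-0.76, adjusted p = 0.0833). Nor was ARID2 knockout with SMARCA4 knockdown against wild-type control (-0.94, adjusted p = 0.00706), for want of fold. Within the ARID2 knockout, SMARCA4 knockdown lowered FZD4 to 21.8 and 18.7 CPM, a 2.66-fold fall (log2 fold change -1.41, SE 0.183, adjusted p = 0.00365). The call in SMARCA4 knockout with ARID2 knockdown sits at the fold threshold: it was lost with another scaling (-1.0), without the low-count filter (-0.97), by DESeq2 (-1.0) and without wild-type control replicate 2 (-0.87), SMARCA4 knockout with ARID2 knockdown replicate 2 (-1.0) or either ARID2 knockout library (-1.0). Exons of FZD4 share 1399 bases with the opposite-strand gene PRSS23, and reads of the 2 cannot be told apart here.

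WNT3 was the member that rose. It held 13.3 and 12.9 CPM in wild-type control and 50.1 and 65.4 CPM in wild type with both knockdowns (log2 fold change 2.13, SE 0.345, adjusted p = 0.0241). SMARCA4 knockout with ARID2 knockdown held 30.3 and 34.6 CPM of WNT3 (log2 fold change 1.26, adjusted p = 0.0343). SMARCA4 knockout alone stood at 23.9 and 26.5 CPM, above both controls and not called (0.89, adjusted p = 0.159), and ARID2 knockout at 6.89 and 6.31 CPM, below them and not called (-0.99, adjusted p = 0.330). Both WNT3 calls were lost without any 1 library of either group compared, at values of 1.16 to 1.37 and 1.91 to 2.30. WNT11 fell in both double losses, to 0.742 and 1.42 CPM and to 0.960 and 1.72 CPM, from 3.95 and 10.4 CPM in wild-type control. DKK3 fell in ARID2 knockout with SMARCA4 knockdown to 0.278 and 0.167 CPM from 1.98 and 5.19 CPM. These 3 calls were lost without wild-type control replicate 2, at -1.90 and -1.62 for WNT11 and -3.17 for DKK3, and also without 1 library of their own group, at -2.93 to -2.08 for WNT11 and at -4.35 and -3.72 for DKK3.

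**Figure D4:**
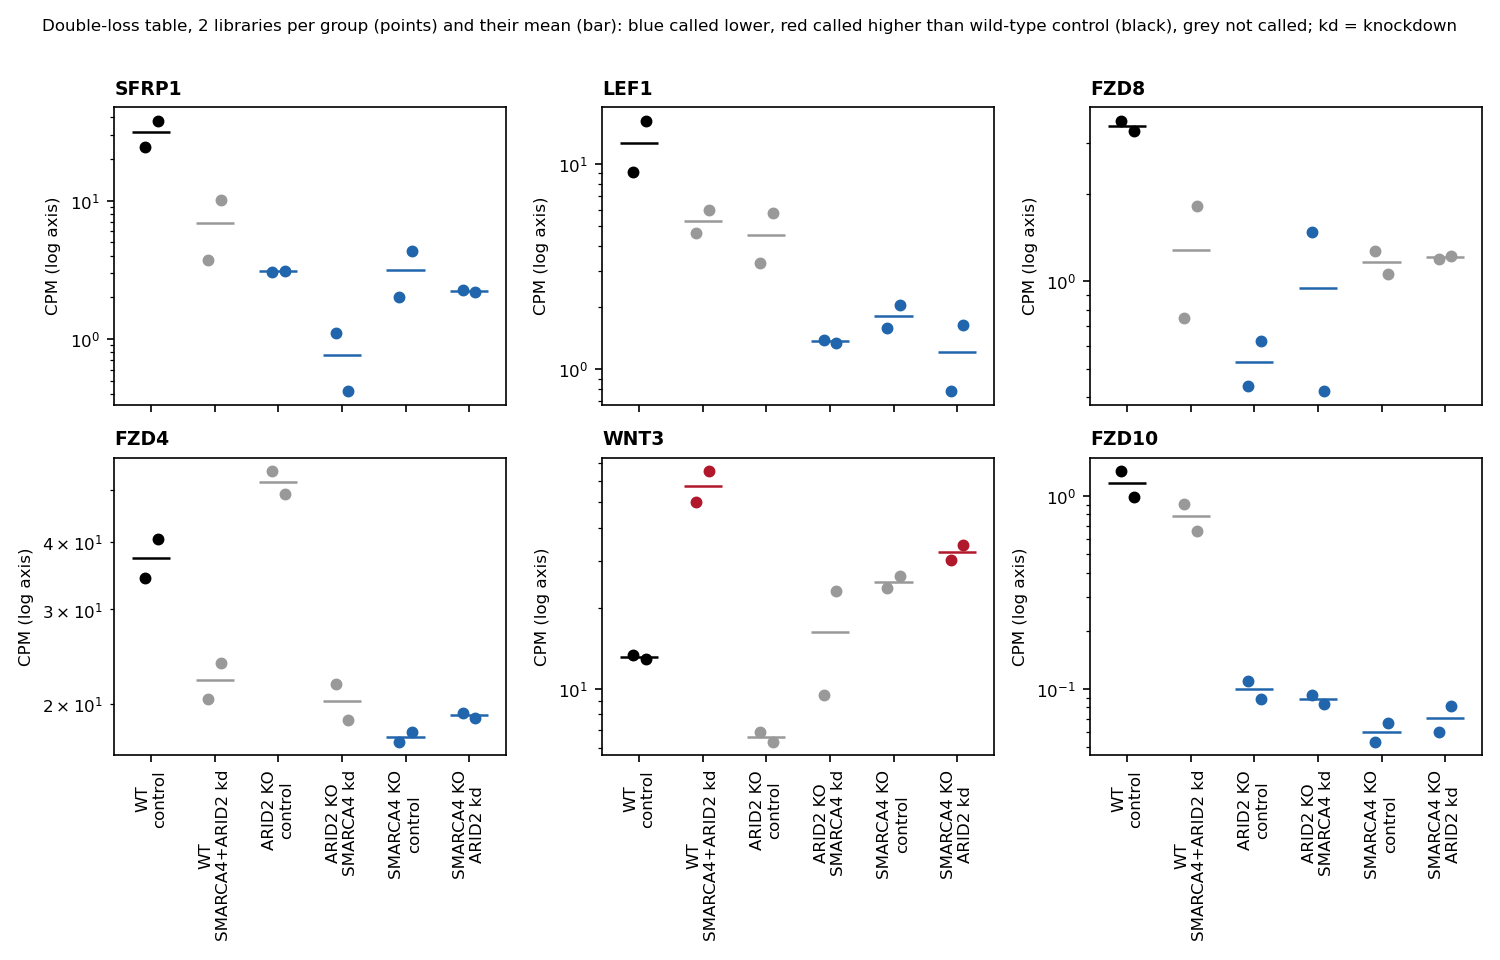
CPM of SFRP1, LEF1, FZD8, FZD4, WNT3 and FZD10 on log axes in the 12 libraries of the double-loss table, with 2 points and their mean (bar) per group, red or blue where called higher or lower than wild-type control. SFRP1 lies below both wild-type control libraries in all 5 other groups, FZD4 is below them wherever SMARCA4 was knocked out or knocked down, and WNT3 is highest in wild type with both knockdowns.

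The second loss on top of a first was tested directly. SMARCA4 knockdown in the ARID2 knockout changed 1 of 27 members, FZD4, with 2.88% of all genes called, and 8 members had an unadjusted p under 0.05. Among these LEF1 (log2 fold change -1.79, adjusted p = 0.0562), WNT3 (1.27, adjusted p = 0.0748) and SFRP1 (-2.08, adjusted p = 0.0933) missed the threshold. ARID2 knockdown in the SMARCA4 knockout changed 0 of 27 members by edgeR, with 0.0205% of all genes called and 1 member, FZD1, at an unadjusted p under 0.05. DESeq2 called 4 members over both of these comparisons, and edgeR with a term for the replicate number gave 5 calls. A departure from additivity of the 2 losses was called by edgeR for 0 members in either double loss, where 1.06% and 0.281% of all genes were called. In each, 5 members had an unadjusted p under 0.05, FZD10 and FZD8 in both, and DESeq2 called 3 member-by-contrast pairs in sum. The shares of all genes called by DESeq2 or with the replicate term are not given. The member counts from those fits therefore have nothing to be set against.

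For the knockouts that both tables hold, signs could be compared in separate libraries. All 6 members called in the ARID2 clone had the same sign in the ARID2 knockout of the double-loss table, and FZD10, FZD8 and SFRP1 were called lower in both. Of the members called in the SMARCA4 clones, 7 in 2878-4 and 4 in 2878-6, all had the same sign in the SMARCA4 knockout of the second table, and FZD10, LEF1 and SFRP1 were called lower in both. The share of all called genes that kept their sign is not given, so these counts have nothing to be set against. The labels do not say which ARID2 or SMARCA4 clone the second table used. If it was the same clone, an effect of the clone and one of the knockout cannot be told apart. FZD10 was also low in 20 of 24 clones of the knockout table, so its calls are not particular to these 2 genes. FZD8 was below both wild-type control libraries in every other group of the double-loss table, as given above.

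Of 64 other genes of the pathway (co-receptors, intracellular components, R-spondins, planar polarity genes and further targets), 56 were tested in the knockout table and 22 were called in at least 1 clone, or 39.3% against 25.3% of all genes tested. They gave 60 higher and 52 lower calls, or 8.33% of their gene-by-clone pairs against 4.70% over all genes. The 34 others were never called. SOSTDC1, a secreted WNT and BMP antagonist, was called most, higher in 6 clones and lower in 12, with log2 fold changes from -4.05 to 3.41. TLE1, a corepressor that binds LEF1 and TCF factors, rose in 11 clones and fell in none. From 1.03 CPM in wild type it reached means of 17.1 and 18.7 CPM in the ARID1A clones and 5.21 and 10.2 CPM in the SMARCA4 clones. RSPO3, a secreted ligand of LGR receptors that strengthens the signal, was higher in 5 and lower in 3, and RNF43, an enzyme that removes Frizzled receptors from the surface, was higher in 3 and lower in 3. CCND1, which drives the cell cycle, fell in 6 clones and rose in 1. The planar polarity genes PRICKLE1 and PRICKLE2 were lower in 5 and 4 clones and higher in 1 and 2, CELSR3 rose in 6, and the WNT5A receptor gene ROR1 rose in 5 and fell in 1. TLE2 rose in 3 clones and TNFRSF19 in 2, and NKD2 fell in 2.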

How the data were processed

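RNA was measured by poly-A sequencing of 87 HAP1 libraries with single 50-base reads, per the labels' protocols. The authors deposited estimated counts per gene in a table of 75 libraries and another of 12, and a table of log2 values. The submitters' processing notes name Bowtie, Trimmomatic, Picard and DESeq2 with builds GRCh37 and hg19, and no label or header names the counting tool, its strand setting or the annotation. The deposited log2 table is named as TPM by the authors, but its values followed log2 CPM without scaling by length (71 libraries), so it served only an alternative with limma 3.58.1, and levels were instead divided by merged exon lengths from GENCODE v29. This departs from the planned use of TPM. In all, 8 columns of values that match no sample were left out.

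Counts were rounded to whole numbers and tested with edgeR 4.0.16 (R 4.3.3, TMM scaling, low-count filter, robust quasi-likelihood test, all groups of a table in 1 fit) with Benjamini-Hochberg adjustment over all genes tested. The fit and its adjusted p, without the fold threshold, were tested on simulated counts with 1 fixed spread. Low-count genes were not among those changed. Of 100 genes changed 2-fold, 89% were recovered for SMARCA4 2878-4 against wild type. For SMARCA4 knockout against wild-type control in the double-loss table it was 79%. The full call rule and the low-count members were not tested in this way. Replicates with the same number were not treated as pairs, since the labels do not say what a number shares. Alternatives were another scaling, no filter, DESeq2 1.42.0, a replicate block, no fold threshold, subtracting 1, fewer libraries, another reference and leaving out libraries. Members given in full were called in at least 6 clones, called alike in both clones of SMARCA4 or ARID1A, or called in the double-loss table. The members, lists and rules were chosen with earlier results of these data known.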

Additional observations from a re-analysis of the deposited data

Results flagged for a closer look

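DKK1 differed between the 2 ARID1A knockout clones. The log2 fold change of 618-10 minus 618-3 was -2.87 (SE 0.504, edgeR's quasi-likelihood test, Benjamini-Hochberg adjusted p = 6.48e-05), with means of 0.198 CPM and 1.497 CPM. It was singled out because clones of the same gene differed in a direct test, and it rests on 1 to 6 counts per library in 618-10 and 20 to 41 in 618-3.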

How the results depend on the processing

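Of 1402 values for the 96 calls of the members given in full, 1303 kept their direction and call, 99 kept the direction and lost the call, 0 reversed, and 47 calls were kept under every alternative. With the adjusted p alone, 86 pairs were higher and 96 lower over the 24 clones, and the calls numbered 13 and 10 in SMARCA4 2878-4 and 2878-6, 6 and 12 in ARID1A 618-10 and 618-3, and 6 between clones of the same gene. The share of all genes under the adjusted p alone is not given, so these counts have nothing to be set against. When single libraries or all libraries of 1 number were left out, calls between clones of the same gene ranged from 0 to 1. In the double-loss table higher calls then ranged from 0 to 2 and lower calls from 12 to 29, those for a knockdown inside a knockout from 1 to 2 and those for non-additivity from 0 to 1. DESeq2 gave 4 calls for the knockdown inside a knockout and 3 for non-additivity. The labels do not say that a replicate number marks a shared culture or day. Deviations of same-numbered libraries correlated above 0.1 for every pair in 5 of 24 comparisons of the knockout table but in 4 of 5 of the double-loss table (0.251 to 0.527, and 0.0929 in the other), where 2 libraries per group give 1 value each, so pairing there was not settled. With a replicate block the double-loss table gave 28 lower calls, 5 for the knockdown inside a knockout and 1 for non-additivity. The cause of these changes was not tested. Shares of all genes called by DESeq2, with a replicate block or with libraries left out are not given for comparison. Depth limits the low members: DKK1, WNT6, WNT7B and WNT10A rest on few counts per library, and 12 members were not tested at all. Every gene but ARID1A and SMARCA4 has 1 clone or, for SMARCC2, none named.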
